A study of Mus musculus with 6 samples.

Results

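Aminoacyl-tRNA synthetases are the enzymes that join each amino acid to its transfer RNA (tRNA). Their genes were followed here in hematopoietic stem cells (HSCs) that lacked the ribosomal protein Rpl22. The members were chosen by gene symbol, as the rows of the count table that carry the names of the synthetases of the cytosol and of the mitochondrion. All 36 listed genes were found among the 34573 genes of the table, 20 of them for cytosolic and 16 for mitochondrial enzymes. The rule uses no measured value.

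Each amino acid has its own synthetase, which uses ATP to activate the amino acid and then transfers it to the matching tRNA. Mammalian cells run this reaction in the cytosol and again inside the mitochondrion, where a separate set of enzymes, also encoded in the nucleus, charges the tRNAs that serve the few proteins of the respiratory chain made there. Gars and Kars are exceptions, since each gene gives both the cytosolic and the mitochondrial enzyme, and they were counted here with the cytosolic genes. Several cytosolic synthetases are held in a multisynthetase complex with scaffold proteins, and many of the cytosolic genes are known targets of ATF4, the transcription factor of the amino acid response. In HSCs the rate of protein synthesis is known to be kept low.

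The study asked how Rpl22 acts on gene expression in HSCs of the mouse. Lineage-negative CD48- CD150+ HSCs were sorted from the bone marrow of young adult mice, in 3 samples labelled Rpl22 KO (germline Rpl22-/-, so that every cell type of the mouse and of the stem cell niche lacked the gene) and 3 samples labelled Rpl22 WT (Rpl22+/+), and polyA RNA of each was sequenced as its own library. The labels do not say whether the 3 samples of a genotype came from separate mice, so the p-values measure the spread between these samples, which may in part be technical. No treatment was applied to either group.

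Reads counted on genes ran from 9321123 in Rpl22+/+ replicate 3, the shallowest library, to 13385850. Levels are given as CPM, the reads of a gene per 1000000 reads of the library after TMM scaling. The label check came first. Rpl22 had 35.0, 43.9 and 41.5 CPM in the 3 Rpl22-/- libraries and 529, 562 and 523 CPM in the 3 Rpl22+/+ libraries, so each library carried the genotype of its label. The HSC marker Kit was high in all 6 libraries (886 to 984 CPM in Rpl22-/- and 890 to 990 CPM in Rpl22+/+), and the summed level of 9 HSC markers was 2110 to 2310 CPM in Rpl22-/- and 2280 to 2340 CPM in Rpl22+/+. Of those 9 markers 1, Fgd5, was called lower. Megakaryocyte markers ran higher in Rpl22-/- HSCs, with summed levels of 972 to 1240 CPM against 701 to 923 CPM and 4 of 6 markers called higher, and their part in the synthetase results was not tested. Summed B cell markers were at 24.6 to 28.2 CPM in Rpl22-/- and 21.2 to 23.4 CPM in Rpl22+/+, and summed erythroid markers at 35.9 to 39.7 and 32.0 to 33.3 CPM, low and without overlap between genotypes. Summed T cell markers were at 3.35 to 6.07 CPM over the 6 libraries. The part of these cells in the synthetase results was not tested.

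The genotypes were compared with the quasi-likelihood test of edgeR in 14004 genes, and a gene was called where its Benjamini-Hochberg adjusted p over all of them was below 0.05. By this rule 780 genes (5.57%) differed, 459 (3.28%) higher and 321 (2.29%) lower in Rpl22-/- HSCs. All 36 synthetase genes had enough reads to be tested, and 1 of them passed, Lars2, the leucyl-tRNA synthetase of the mitochondrion, which fell. An unadjusted p below 0.05 was found for 6 of the 36 genes, beside 22.3% of all genes tested. The 3 libraries of each genotype did not overlap for 4 of the 36, beside 26.9% of all genes. The median log2 fold change was 0.0584 over the 36 genes and -0.0068 over all genes tested, and 23 of the 36 lay above 0, which was so for 48.7% of all genes.

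**Figure D1:**
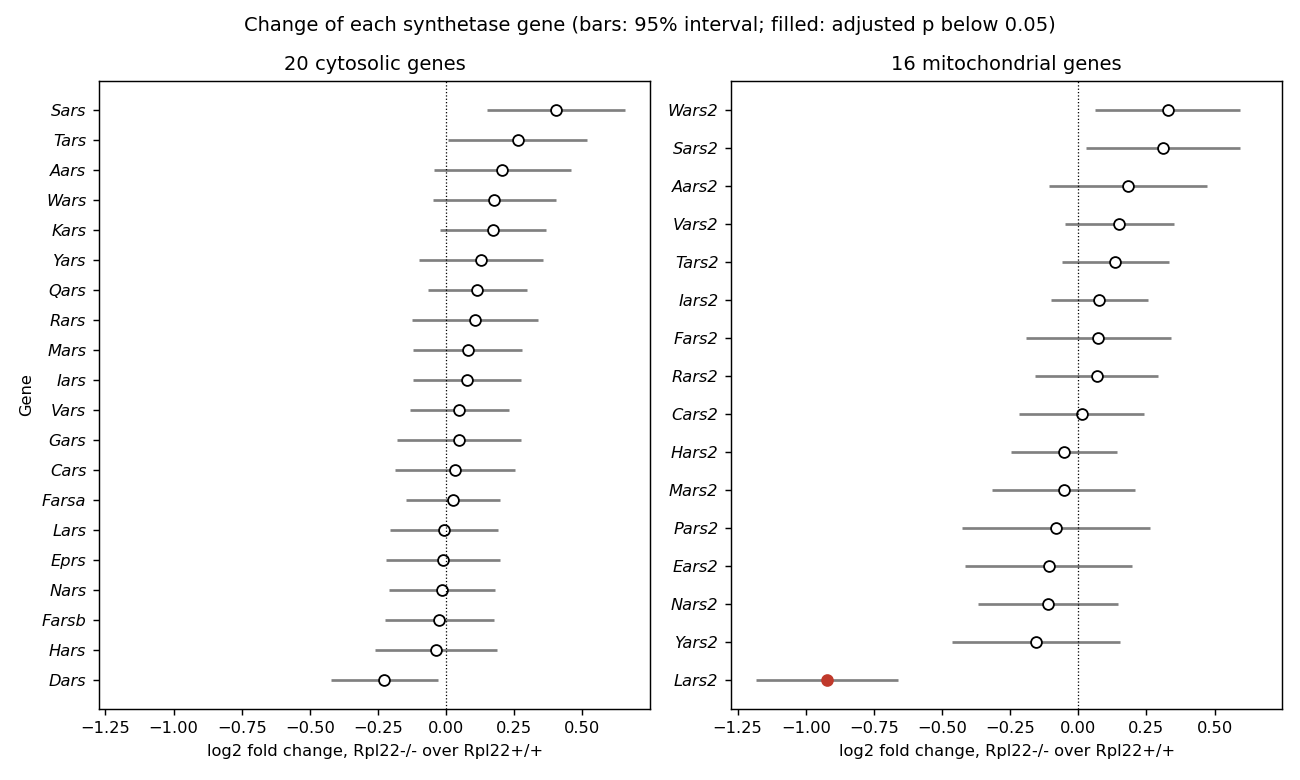
Log2 fold change (x axis, Rpl22-/- over Rpl22+/+) of each synthetase gene (y axis), with the 20 cytosolic genes on the left and the 16 mitochondrial genes on the right. Points are edgeR estimates, bars are 95% intervals, and the filled point marks an adjusted p below 0.05. Lars2 stands alone at -0.92, while the other 35 genes lie between -0.23 and 0.40.

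Lars2 attaches leucine to the mitochondrial leucine tRNAs. The gene (ENSMUSG00000035202) lies on the forward strand at chr9:123366927-123462666 of GRCm38, the assembly also named mm10, and none of its exonic bases is shared with another annotated gene. Its reads numbered 1524, 1351 and 1401 in Rpl22-/- libraries and 3053, 3009 and 1561 in Rpl22+/+ libraries, here and in later lists in the order of replicates 1 to 3. Scaled to CPM, these were 119, 112 and 106 in Rpl22-/- libraries and 235, 242 and 162 in Rpl22+/+ libraries. The Rpl22-/- libraries lay close together and all below the lowest Rpl22+/+ library, replicate 3, which itself lay well under the other Rpl22+/+ libraries. The mean level was 113 ± 6.18 CPM (SD, n = 3) against 213 ± 43.8 CPM (SD, n = 3), so the Rpl22-/- mean was 52.9% of the Rpl22+/+ mean. The log2 fold change was -0.92 with a standard error of 0.123 (95% interval -1.18 to -0.66, adjusted p = 0.00103 from edgeR). By p-value Lars2 ranked 20 among all 14004 genes, and 1.22% of genes had a log2 fold change as low or lower. It passed the threshold in all 17 alternative ways of processing the counts, where its log2 fold change ran from -1.08 without Rpl22+/+ replicate 3 to -0.82 without Rpl22+/+ replicate 2, and its highest adjusted p was 0.0249, without Rpl22-/- replicate 3.

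A stretch of the last part of the Lars2 transcript is nearly identical to other transcripts, which bears on how its reads can be assigned. In the annotated transcript of 3894 bases, bases 3278 to 3349 were 98.6% identical over 72 bases to Gm15564, and bases 3233 to 3329 were 94.8% identical over 97 bases to AA474408. Few reads were counted on these genes, with 0, 3 and 3 reads of Gm15564 in Rpl22-/- and 0, 0 and 0 in Rpl22+/+, and 19, 10 and 32 reads of AA474408 in Rpl22-/- and 20, 23 and 30 in Rpl22+/+. AY036118, a noncoding gene known for its overlap with ribosomal RNA sequence and named here after its values were seen, was lower alongside Lars2, with 34.1, 20.1 and 21.6 CPM in Rpl22-/- and 36.9, 55.8 and 53.0 CPM in Rpl22+/+ (log2 fold change -0.94 with a standard error of 0.183, adjusted p = 0.011 from edgeR). Without Rpl22-/- replicate 3 that adjusted p was 0.0805, and without Rpl22+/+ replicate 2 it was 0.0503. The mitochondrial ribosomal RNA mt-Rnr1 went the other way, at 110, 129 and 125 CPM in Rpl22-/- and 95.5, 88.8 and 78.3 CPM in Rpl22+/+ (log2 fold change 0.47 with a standard error of 0.0959, adjusted p = 0.0133 from edgeR). The mitochondrial ribosomal RNA mt-Rnr2 overlapped between genotypes, at 165, 244 and 175 CPM in Rpl22-/- and 198, 164 and 123 CPM in Rpl22+/+ (log2 fold change 0.27, adjusted p = 0.329 from edgeR). The part of ribosomal RNA reads in the Lars2 result was not tested.

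Long genes as a group ran lower in Rpl22-/- libraries, where the mean deviation of the longest 20% of genes from their own mean over the libraries was -0.0978 to -0.00755 on the log2 scale, beside 0.0293 to 0.0587 in Rpl22+/+ libraries, and Lars2 has 11089 exonic bases. With the length trend of each library removed, the log2 fold change of Lars2 was -0.85 (adjusted p = 0.0033 from edgeR), and with the trend on GC content removed it was -0.95 (adjusted p = 0.00109 from edgeR).

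**Figure D2:**
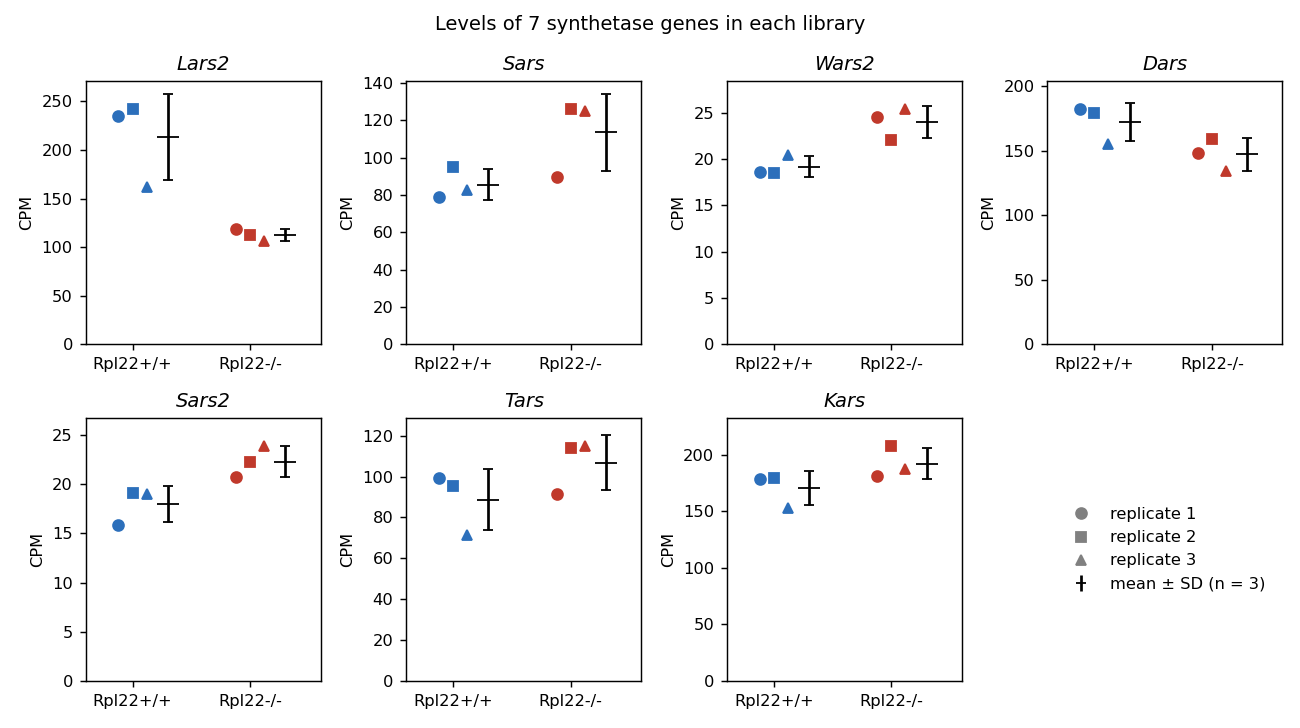
Level in CPM (y axis, from 0) of the 7 synthetase genes with an unadjusted p below 0.05 or with no overlap between genotypes, by genotype (x axis). Each symbol is a library, shaped by replicate number, and the black bar beside them is the mean ± SD (n = 3). Lars2 fell from 213 to 113 CPM, and the other 6 differences were smaller and did not pass the adjusted threshold.

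None of the 20 cytosolic genes passed the adjusted threshold in edgeR, while 3 had an unadjusted p below 0.05 and DESeq2 called 1, Sars. The median log2 fold change of the 20 was 0.0624, with 14 above 0 and 6 below, and single genes ran from -0.2263 to 0.4041 with standard errors of 0.0815 to 0.12. All 95% intervals lay between -0.4229 and 0.657.

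Sars makes the cytosolic seryl-tRNA synthetase and had the largest positive difference of the 36. Its level was 89.6, 126 and 125 CPM in Rpl22-/- libraries and 79.2, 94.8 and 82.8 CPM in Rpl22+/+ libraries. Rpl22-/- replicates 2 and 3 lay above all Rpl22+/+ libraries and replicate 1 lay among them. The log2 fold change was 0.40 (standard error 0.119), and the adjusted p of 0.0581 from edgeR missed the threshold. In 5 of 17 alternatives it passed, namely DESeq2, no filter on low counts, the term for replicate number with and without the length and GC trends removed, and without Rpl22-/- replicate 1, and over all 17 its adjusted p ran from 0.00115 to 0.22, the highest without Rpl22-/- replicate 3.

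Tars charges threonine tRNA. It had 91.3, 114 and 115 CPM in Rpl22-/- libraries and 99.5, 95.3 and 71.5 CPM in Rpl22+/+ libraries. Rpl22-/- replicate 1 lay below 2 Rpl22+/+ libraries, so the groups overlapped, and the log2 fold change of 0.26 (standard error 0.12) had an adjusted p of 0.212 from edgeR. Without Rpl22-/- replicate 1 the adjusted p was 0.0465, and without Rpl22+/+ replicate 3 the log2 fold change was 0.13 (adjusted p = 0.585 from edgeR).

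Kars, which gives the lysyl-tRNA synthetase of both compartments and is a member of the multisynthetase complex, had 181, 208 and 188 CPM in Rpl22-/- libraries and 179, 180 and 153 CPM in Rpl22+/+ libraries. The groups did not overlap, but Rpl22-/- replicate 1 lay close to Rpl22+/+ replicates 1 and 2. The log2 fold change was 0.17 with a standard error of 0.092 (adjusted p = 0.284 from edgeR). It was 0.11 without Rpl22-/- replicate 2 and 0.10 without Rpl22+/+ replicate 3.

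Dars, the aspartyl-tRNA synthetase of the same complex, was the lowest of the cytosolic genes by log2 fold change. Its level was 148, 159 and 134 CPM in Rpl22-/- libraries and 182, 179 and 155 CPM in Rpl22+/+ libraries, where Rpl22-/- replicate 2 overlapped Rpl22+/+ replicate 3. The log2 fold change was -0.23 with a standard error of 0.0925 (adjusted p = 0.161 from edgeR), and with the GC trend removed it was -0.11 (adjusted p = 0.57 from edgeR).

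The remaining 16 cytosolic genes had log2 fold changes between -0.0369 for Hars and 0.2056 for Aars, the histidyl- and alanyl-tRNA synthetases. The 8 enzymes of the multisynthetase complex (Dars, Eprs, Iars, Kars, Lars, Mars, Qars and Rars) had a median of 0.0774 with 5 above 0, and the 12 cytosolic genes outside it had a median of 0.0478 with 9 above 0. Synthetases fall into class I and class II by the fold of their catalytic domain. Of the 9 cytosolic class I genes 8 lay above 0 (median 0.0787), and of the 10 of class II 6 did (median 0.0363), while Eprs, a fusion of an enzyme of each class, was kept apart at -0.0113. An unadjusted p below 0.05 from edgeR was found for 0 of these 9 class I genes and for 3 of these 10 class II genes. The difference between the classes was not tested.

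The sum over the 20 cytosolic genes was 2408, 2867 and 2561 CPM in Rpl22-/- replicates 1, 2 and 3, and 2558, 2591 and 2335 CPM in Rpl22+/+ replicates 1, 2 and 3. The groups overlapped, at 2612 ± 234 CPM (SD, n = 3) against 2495 ± 139 CPM (SD, n = 3). A single library stood out. Rpl22-/- replicate 2 held the highest value of the 6 libraries for 15 of the 20 cytosolic genes and for 4 of the 16 mitochondrial genes. Without it the median log2 fold change of the cytosolic genes was -0.0012 and 10 of the 20 lay above 0. Without Rpl22-/- replicate 1, which was low for many of these genes, the median was 0.1319 and 18 of the 20 lay above 0. The same replicate 2 had the highest level of the granulocyte gene Mpo, at 101 CPM beside 13.9 and 17.1 CPM in the other Rpl22-/- libraries and 1.46, 5.78 and 20.5 CPM in Rpl22+/+ libraries, and the highest summed level of 7 neutrophil markers, at 213 CPM beside 97.2 to 111 CPM in the other Rpl22-/- libraries and 75.2 to 117 CPM in Rpl22+/+ libraries. Elane was also highest in that library, at 20.2 CPM. Prtn3, Ly6g, Itgam, S100a8 and S100a9 were not highest there, at 72.7, 0.0, 10.2, 1.75 and 6.66 CPM. The part of cells with these markers in the cytosolic synthetase levels was not tested. In bulk samples of this kind fewer cells of a type and less RNA per cell cannot be told apart.

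**Figure D3:**
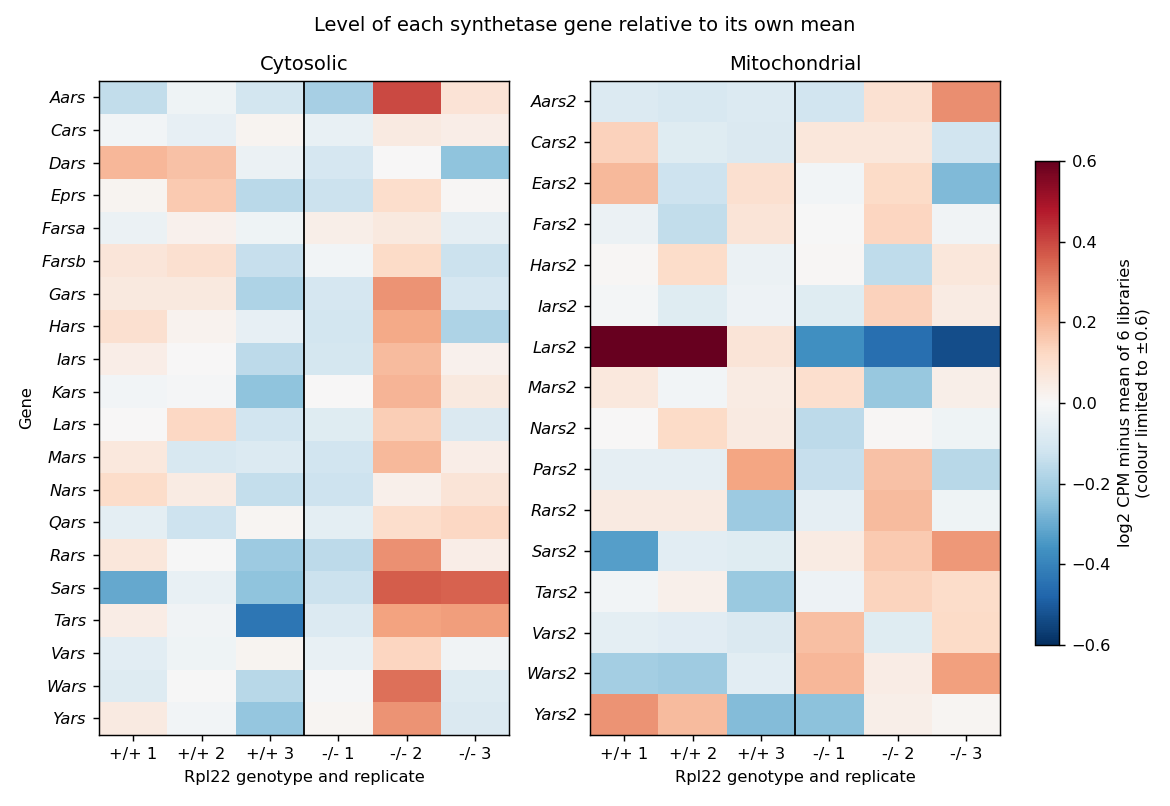
Level of each synthetase gene (rows) in each library (columns, Rpl22+/+ replicates 1 to 3 and then Rpl22-/- replicates 1 to 3), as log2 CPM minus the mean of the gene over the 6 libraries. Colours stop at ±0.6. The row of Lars2 parts the genotypes, and the column of Rpl22-/- replicate 2 is raised across most cytosolic genes, with the highest value for 15 of 20.

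Apart from Lars2, the mitochondrial synthetase genes gave no call in edgeR or DESeq2, and 2 of the 15 had an unadjusted p below 0.05 in edgeR. Their median log2 fold change was 0.0407 over all 16, with 9 above 0 and 7 below, and 0.0683 over the 15 genes without Lars2. The 95% intervals of those 15 lay between -0.4624 and 0.5944.

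Wars2 and Sars2 came next, both higher in Rpl22-/- libraries without overlap and neither past the adjusted threshold. Wars2, which charges mitochondrial tryptophan tRNA, had 24.6, 22.1 and 25.4 CPM in Rpl22-/- libraries and 18.6, 18.5 and 20.5 CPM in Rpl22+/+ libraries (log2 fold change 0.33 with a standard error of 0.126, adjusted p = 0.136 from edgeR). Sars2, the mitochondrial seryl-tRNA synthetase, had 20.7, 22.3 and 23.9 CPM in Rpl22-/- libraries and 15.9, 19.1 and 19.0 CPM in Rpl22+/+ libraries (log2 fold change 0.31 with a standard error of 0.133, adjusted p = 0.179 from edgeR). Neither passed the threshold in any of the 17 alternatives. The remaining 13 genes had log2 fold changes between -0.1541 for Yars2 and 0.1823 for Aars2, the mitochondrial tyrosyl- and alanyl-tRNA synthetases.

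Summed over the 16 mitochondrial genes, the level was 731.3, 757.5 and 746.5 CPM in Rpl22-/- libraries and 853.9, 851.9 and 750.5 CPM in Rpl22+/+ libraries. Rpl22+/+ replicate 3 lay among the Rpl22-/- libraries. With Lars2 left out of the sum, the means were 632.5 ± 17.5 CPM (SD, n = 3) in Rpl22-/- and 606.0 ± 16.1 CPM (SD, n = 3) in Rpl22+/+, so the order of the means turned. Lars2 alone took 25.8 ± 3.66% (SD, n = 3) of the reads on mitochondrial synthetase genes in Rpl22+/+ HSCs and 15.1 ± 0.985% (SD, n = 3) in Rpl22-/- HSCs.

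For 13 amino acids the list holds a cytosolic and a mitochondrial gene, and their log2 fold changes were set side by side. Both were above 0 for 8 of the 13, both below 0 for 3, and of opposite sign for 2 (methionine, with Mars at 0.0787 and Mars2 at -0.0537, and tyrosine, with Yars at 0.1293 and Yars2 at -0.1541). The cytosolic value was the higher for 10 of the 13. Leucine stood apart from the rest. The ratio of Lars to Lars2 CPM was 0.921, 1.13 and 1.01 in Rpl22-/- libraries and 0.49, 0.517 and 0.653 in Rpl22+/+ libraries, and it was the only ratio of the 13 for which the genotypes did not overlap. Lars itself, the cytosolic leucyl-tRNA synthetase of the multisynthetase complex, had 109, 127 and 108 CPM in Rpl22-/- libraries and 115, 125 and 106 CPM in Rpl22+/+ libraries, with a log2 fold change of -0.0088 (95% interval -0.2065 to 0.1889). For serine the log2 fold changes of both genes were among the highest, with 0.4041 for Sars and 0.3119 for Sars2, and neither was called by edgeR.

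**Figure D4:**
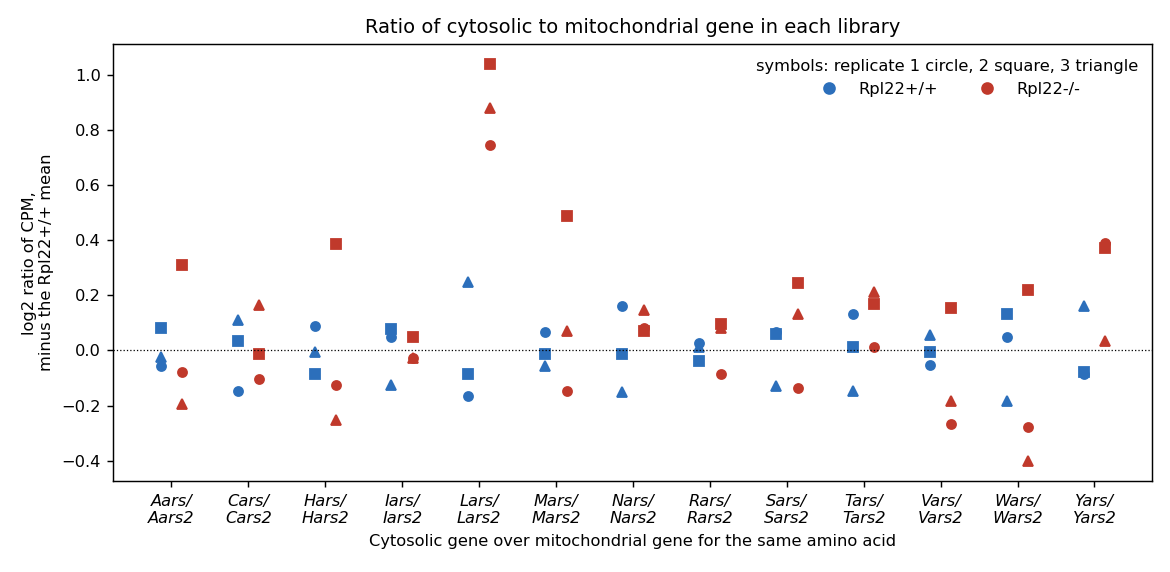
Log2 ratio of the CPM of the cytosolic gene to that of the mitochondrial gene for 13 amino acids (x axis), in each library, with the mean of the 3 Rpl22+/+ libraries set to 0 (y axis). Colours are genotypes and symbols are replicate numbers. The 3 Rpl22-/- libraries lie above the 3 Rpl22+/+ libraries for Lars over Lars2, and the genotypes overlap for the other 12 pairs.

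Levels of different genes were compared per length, as CPM per kilobase of exon. On this scale the median cytosolic gene stood at 24.0 in Rpl22+/+ and 26.2 in Rpl22-/- HSCs, and the median mitochondrial gene at 5.47 and 6.15. The ratio of the medians in a library was 4.39 ± 0.197 (SD, n = 3) in Rpl22+/+ and 4.3 ± 0.427 (SD, n = 3) in Rpl22-/-, a difference smaller than the spread between replicates. The cytosolic gene was the higher of the 2 for 12 of the 13 amino acids in Rpl22+/+ HSCs, and the exception was cysteine, with Cars at 0.933 times the level of Cars2.

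The valyl-tRNA synthetase Vars had the highest level per length of the cytosolic genes, at 55.8 ± 1.57 in Rpl22+/+ and 57.7 ± 3.77 in Rpl22-/- (SD, n = 3). Kars (38.2 ± 3.43 and 43.1 ± 3.2) and the glycyl-tRNA synthetase Gars (37.1 ± 3.48 and 38.4 ± 5.91) followed over the 6 libraries, and in Rpl22+/+ alone Dars (39.4 ± 3.4) did not differ from them beyond the spread. The lowest were Aars (10.6 ± 0.467 and 12.2 ± 2.52), Yars (10.7 ± 1.07 and 11.7 ± 1.54) and Cars (5.13 ± 0.118 and 5.25 ± 0.186), of which Aars and Yars lay within each other's spread and Cars lay below both. Of the mitochondrial genes, the arginyl-, isoleucyl- and histidyl-tRNA synthetases Rars2 (17.7 ± 1.85 and 18.6 ± 1.75), Iars2 (15.2 ± 0.325 and 16.1 ± 1.19) and Hars2 (15.4 ± 0.799 and 14.8 ± 1.15) were highest over the 6 libraries. Lars2 went from 19.2 ± 3.95 in Rpl22+/+ to 10.1 ± 0.557 in Rpl22-/-, from among these genes to below them. The lowest were Wars2 (3.23 ± 0.192 and 4.04 ± 0.296), Nars2 (3.32 ± 0.129 and 3.08 ± 0.178) and Mars2 (2.38 ± 0.0693 and 2.29 ± 0.267).

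The order depends on the length used, because the union of exons takes in introns kept in some annotated transcripts, as for Eprs (18102 bases in the union and 5638 in the longest transcript). With the length of the longest transcript the ratio of medians was 3.94, Lars2 was the highest mitochondrial gene in Rpl22+/+ HSCs (54.7 ± 11.2, and 28.9 ± 1.59 in Rpl22-/-), and the cytosolic gene was higher for 11 of 13 amino acids. With the longest coding transcript it was so for 10 of 13. Reads that overlap another gene are a further limit. Of the exonic bases of Iars2 24.2% lie opposite Rab3gap2 and a neighbouring gene, and of those of Aars 15.1% are shared, mostly with Exosc6 on the same strand, while Hars and Hars2 meet head to head with 195 shared bases. The strand setting of the counting is not given in the sources used here.

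**Figure D5:**
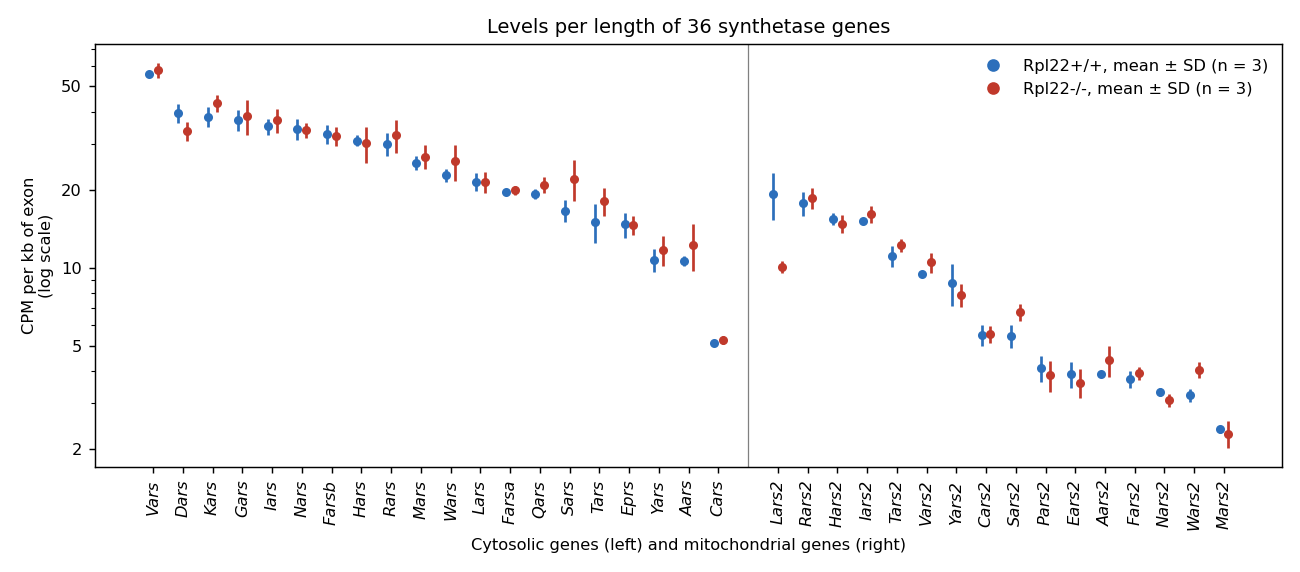
CPM per kilobase of exon (y axis, log scale) of the 20 cytosolic genes (left) and the 16 mitochondrial genes (right), each ordered by the Rpl22+/+ mean. Points are means and bars the SD over 3 libraries of a genotype. Cytosolic genes ran from 5.13 to 55.8 and mitochondrial genes from 2.38 to 19.2 in Rpl22+/+ HSCs, and Lars2 is the gene whose genotypes lie furthest apart.

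Many cytosolic synthetase genes carry a C/EBP-ATF response element, the DNA element bound by ATF4 when amino acids run short. Promoters from 250 bases before to 50 bases after the start site (RefSeq, GRCm38.p6) were searched for its core TGATGNAA on both strands, the only motif searched. Promoters were matched for 27 of the 36 genes, and not for Cars, Hars, Hars2, Lars, Nars, Pars2, Rars, Vars and Wars. The core was found in 5 of the 27 genes (18.5%), beside 4.51% of all 27025 genes and 3.97% of all 32851 promoters of the same length. All 5 were cytosolic (5 of 13 matched) and none of the 14 matched mitochondrial genes held it, which says only that these letters are not in those windows. Windows of 30 bases around 1 match in each of the 5 genes are shown because they hold the shared core, each on the strand of its gene from 5′ to 3′, with the core in capitals. In Gars, Aars, Iars and Tars the capitals are the reverse complement of the core.
Yars (chr4:129189895-129189924, forward strand): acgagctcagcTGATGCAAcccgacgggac
Gars (chr6:55037960-55037989, forward strand): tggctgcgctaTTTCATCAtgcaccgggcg
Aars (chr8:111033840-111033869, forward strand): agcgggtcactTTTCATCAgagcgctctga
Iars (chr13:49682126-49682155, forward strand): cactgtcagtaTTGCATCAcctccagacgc
Tars (chr15:11399655-11399684, reverse strand): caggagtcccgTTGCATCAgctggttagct

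In these windows the core began 30 bases before the start site in Gars and 15 bases before it in Tars, and at base 10 after it in Aars, base 8 in Iars and base 4 in Yars. The log2 fold changes of these genes were 0.2056 for Aars, 0.2624 for Tars, 0.1293 for Yars, 0.0761 for Iars (isoleucyl-tRNA synthetase) and 0.047 for Gars, with a median of 0.1293. All lay above 0 and none was called by edgeR, 1 of the 5 (Tars) having an unadjusted p below 0.05. DESeq2 called none of them either, while Aars and Tars were called without Rpl22-/- replicate 1. The 8 cytosolic genes with a matched promoter and no core had a median of 0.0521 with 5 above 0.

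Atf4 itself was the 1 gene called among 53 tested genes of tRNA charging, tRNA maturation and the amino acid response. Of all genes tested, 5.57% were called. The level of Atf4 was 158, 190 and 196 CPM in Rpl22-/- libraries and 143, 143 and 132 CPM in Rpl22+/+ libraries. The lowest Rpl22-/- library lay above the highest Rpl22+/+ library. This was a log2 fold change of 0.38 with a standard error of 0.0935 (adjusted p = 0.0282 from edgeR), and the adjusted p passed the threshold in 9 of 17 alternatives. It was 0.0731, 0.125, 0.0974, 0.0835 and 0.114 without Rpl22-/- replicates 2 and 3 and without Rpl22+/+ replicates 1, 2 and 3 in turn. It was 0.0549 with the length trend removed and 0.0817 with the GC trend removed, and the replicate term together with removal of both trends gave a log2 fold change of 0.26 and an adjusted p of 0.154.

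Of the 23 genes of the amino acid response, 20 had enough reads to be tested, with 14 above 0 and 6 below. An unadjusted p below 0.05 was found for 8 of the 20, beside 22.3% of all genes tested. Their median log2 fold change was 0.1144. After Atf4 came Aldh18a1, an enzyme of proline synthesis (123, 151 and 123 CPM in Rpl22-/- and 110, 108 and 96.9 CPM in Rpl22+/+, log2 fold change 0.34, adjusted p = 0.0535 from edgeR), and Slc7a1, a transporter of cationic amino acids (93.8, 119 and 101 CPM against 81.4, 90.2 and 79.7 CPM, log2 fold change 0.32, adjusted p = 0.0672 from edgeR). Neither overlapped between genotypes and neither was called by edgeR, while DESeq2 called both (adjusted p = 0.0293 and 0.0489). Aldh18a1 passed the threshold in 5 of 17 alternatives and Slc7a1 in 6 of 17. Of the 20 genes tested, 6 were higher and 2 lower without overlap between genotypes. Of all genes tested, 26.9% did not overlap, in either direction. The genes named next were chosen after their values were seen. Shmt2, a mitochondrial enzyme of serine and glycine metabolism, had 146, 170 and 151 CPM in Rpl22-/- and 142, 129 and 116 CPM in Rpl22+/+ (log2 fold change 0.27, adjusted p = 0.0998 from edgeR). Eif2ak4 was lower without overlap, with 75.8, 68.8 and 66.9 CPM in Rpl22-/- and 84.3, 82.3 and 82.5 CPM in Rpl22+/+ (log2 fold change -0.24, adjusted p = 0.111 from edgeR). Slc3a2, the heavy chain of several amino acid transporters, had 116, 121 and 121 CPM in Rpl22-/- and 96.9, 114 and 94.1 CPM in Rpl22+/+ (log2 fold change 0.23, adjusted p = 0.136 from edgeR). Asns, the asparagine synthetase, had 30.8, 42.0 and 26.9 CPM in Rpl22-/- and 33.8, 40.5 and 20.9 CPM in Rpl22+/+ (log2 fold change 0.06, adjusted p = 0.904 from edgeR). Ddit3, which encodes the stress factor CHOP and meets Mars on the opposite strand, had 21.0, 18.9 and 17.8 CPM in Rpl22-/- and 23.0, 22.6 and 21.1 CPM in Rpl22+/+ (log2 fold change -0.21, adjusted p = 0.345 from edgeR). Atf3, Chac1 and Slc7a3 had under 1 CPM in every library and were not tested.

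The 3 scaffold proteins of the multisynthetase complex gave no call in edgeR or DESeq2, with an unadjusted p below 0.05 for Aimp1 alone. Aimp1 had 54.0, 46.9 and 42.9 CPM in Rpl22-/- libraries and 62.8, 55.3 and 55.7 CPM in Rpl22+/+ libraries, without overlap (log2 fold change -0.27 with a standard error of 0.104, adjusted p = 0.134 from edgeR). With the GC trend removed the log2 fold change of Aimp1 was -0.0863 (adjusted p = 0.696 from edgeR), and without Rpl22-/- replicate 1 it was -0.3634 (adjusted p = 0.0334 from edgeR). Aimp2 and Eef1e1 stood at 0.1738 and 0.1429 on the log2 scale. Mitochondria make glutaminyl-tRNA by amidation of glutamyl-tRNA, with the subunits Qrsl1, Gatb and Gatc, and formylate the initiator with Mtfmt. Of these Gatc had 45.8, 49.5 and 48.6 CPM in Rpl22-/- libraries and 41.7, 41.4 and 37.1 CPM in Rpl22+/+ libraries, without overlap (log2 fold change 0.26 with a standard error of 0.0981, adjusted p = 0.134 from edgeR), Mtfmt stood at 0.1061 and Gatb, listed under the older symbol Pet112l, at -0.0667.

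Among other genes related to the synthetases, Sepsecs and Pstk, which act on selenocysteine tRNA, had log2 fold changes of -0.1558 and -0.1669, and neither was called. Dtd1, a deacylase that removes D-amino acids from tRNA, had 54.6, 70.7 and 55.0 CPM in Rpl22-/- libraries and 48.1, 46.6 and 42.2 CPM in Rpl22+/+ libraries, without overlap (log2 fold change 0.39, standard error 0.112), and its adjusted p of 0.0506 from edgeR lay just outside the threshold and inside it in 7 of 17 alternatives. The other proofreading genes were Aarsd1, at 0.25 to 1.77 CPM over the 6 libraries and a log2 fold change of -0.70 (standard error 0.527), and Prorsd1, at -0.1464. Of 19 genes of tRNA maturation 7 lay above 0 and 12 below, with a median of -0.04 and 1 unadjusted p below 0.05. That was Trmt10c, a subunit of mitochondrial RNase P (log2 fold change -0.23, adjusted p = 0.209 from edgeR), followed by the splicing endonuclease subunit Tsen34 (-0.30, adjusted p = 0.236 from edgeR) and Trnt1, which adds CCA to tRNA ends (-0.17, adjusted p = 0.257 from edgeR, and -0.04 with the GC trend removed).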

How the data were processed

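The authors sequenced polyA RNA (TruSeq) of the sorted HSCs, checked reads with FastQC, aligned them to mm10 with TopHat2 (2.1.1 in the submitters' processing notes), and deposited HTSeq counts per gene, as whole numbers without normalization. Annotation and strand setting are not given in the sources used here. Rows of reads assigned to no gene, 58.63% to 60.87% of each library, entered neither library sizes nor tests. No 2 libraries of a genotype agreed within sampling noise (chi-square per degree of freedom of at least 4.05).

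Genotypes were compared by the quasi-likelihood test of edgeR 4.0.16 under R 4.3.3, on TMM-scaled counts of the 14004 genes that passed filterByExpr (minimum count 10), with p-values adjusted by Benjamini-Hochberg across these genes and a threshold of 0.05. CPM uses TMM-scaled libraries. The precision of a gene rests on 3 libraries per genotype and 9321123 to 13385850 reads a library. Positions and lengths came from GENCODE M21 (GRCm38), where 29042 symbols matched directly, 1848 through an older symbol and 3683 not at all. Shared sequence was found with BLAST 2.17.0. Alternatives changed the scaling (RLE factors, upper-quartile factors, library size alone), the tool (DESeq2 1.42.0, which the study used, or voom in limma 3.58.1), the filter (none, or 10 counts in every sample) or the libraries (each left out), added a term for replicate number, or removed lowess trends (span 0.3) on length or on GC content from each library, alone or both with that term.

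Genes named are Rpl22, synthetase genes with an adjusted or unadjusted p below 0.05 or no overlap between genotypes, the 3 highest and 3 lowest levels per length of each compartment, and the called genes and 3 smallest p-values of each related list. Others are named as extremes of a range, for a stated role, or as marked. The members and lists were chosen with earlier results of these data known. Some results are not reported here.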

Additional observations from a re-analysis of the deposited data

How the results depend on the processing

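Lars2 stayed lower and past the threshold in all 17 alternatives. The count of genes called, 780, was 1422 with no filter, 508 with the GC trend removed, and 127 to 1720 with each library left out, lowest without Rpl22-/- replicate 3 and highest without Rpl22-/- replicate 1. With library size alone 43.4% of 850 calls were higher in Rpl22-/- HSCs, beside 58.8% in the TMM analysis. The count of synthetase genes called, 1, was 2 (Lars2 and Sars) with DESeq2, with no filter, with the replicate block, and with the length and GC trends removed together with the replicate block, and 1 to 4 with each library left out, the 4 without Rpl22-/- replicate 1 being Aars, Sars, Tars and Lars2. The count of related genes called, 1, was 2 with RLE factors or at least 10 counts in every sample, 3 with upper-quartile factors, 4 with DESeq2, no filter or the replicate block, 0 with the GC trend removed, and 0 to 7 with each library left out. The labels do not say whether the replicate numbers mark pairs. Same-numbered libraries had correlations of -0.103, 0.0549 and 0.0448 in their deviations from the group means. Not every library correlated best with its own number. With 3 libraries per genotype these values cannot settle whether the samples were paired.

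The cytosolic median log2 fold change ran from -0.0012 to 0.1319 and the mitochondrial from -0.0001 to 0.0811 with each library left out, and the difference of the medians, 0.0217, ran from -0.0183 to 0.0903, so no order of the compartments held throughout. The mitochondrial median was -0.003 with library size alone and 0.0865 with length and GC trends removed together with the replicate block. The number of amino acids with the cytosolic change above the mitochondrial, 10, was 7 to 11. The ratio of cytosolic to mitochondrial medians per length, 4.35 over 6 libraries, was 3.94 with the longest transcript, 3.87 with the longest coding transcript (chosen after seeing the data), and 4.26 to 4.42 with each library left out. Synthetase genes with small differences changed sign between alternatives. The number above 0 ran from 10 to 18 of the 20 cytosolic genes, beside 14 in the main fit. For the 16 mitochondrial genes it ran from 8 to 10, beside 9. Among the related genes followed singly through the alternatives, the sign changed for Pet112l (-0.1162 to 0.0168 with each library left out, the latter without Rpl22-/- replicate 3), Pstk (0.0056 with length and GC trends removed and the replicate block) and Prorsd1 (0.0091 with the GC trend removed). The cause of these shifts was not tested.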
